A study of Caenorhabditis elegans with 4 samples.

Results

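DPY-26 peaks on chromosomes II, III, IV and V of Caenorhabditis elegans embryos were followed by taking the series-wide list of chromatin immunoprecipitation sequencing (ChIP-seq) peaks and keeping the peaks met, over at least 1 bp, by a peak of ChIP replicate 1, of ChIP replicate 2 or of both. The choice kept 366 of the 682 series-wide peaks on these 4 chromosomes (53.7%), out of 9365 peaks in the whole list. The peaks kept are called backed, and the remaining 316 unbacked. Both ChIP libraries and both input libraries came from mixed embryos of the wild-type strain N2, obtained by bleaching gravid adults, as a population of males and hermaphrodites at 20 degrees Celsius. The labels name no mutation, transgene or treatment in any group. Embryos were fixed in 2% formaldehyde for 30 minutes, and the ChIP libraries were made from 2 mg of extract with an affinity-purified rabbit polyclonal antibody raised against DPY-26. The labels do not say whether the 2 ChIP replicates came from separate cultures, so their spread may be technical. Mixed embryos hold many cell types, and a peak does not say in which of them, or in which sex, DPY-26 was bound. Input values were not analysed here, and the lists carry no counts, so depth is unknown.

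DPY-26 is a kleisin, the subunit that closes the ring of a condensin complex. In C. elegans it belongs both to condensin I, which compacts every chromosome in mitosis and meiosis, and to a second condensin that acts in dosage compensation, where it is loaded on both hermaphrodite X chromosomes and their transcription is reduced. On worm autosomes the middle of each chromosome recombines little and carries most essential genes, whereas the arms recombine more and are richer in repeats.

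The members were chosen by these overlaps, so the counts of backing are a description. Of the 366 backed peaks, 147 (40.2%, 95% exact interval 35.1% to 45.4%) had both replicate lists behind them. Replicate 1 alone backed 103 (28.1%, 23.6% to 33.05%), and 116 (31.7%, 27.0% to 36.7%) had only replicate 2. Against all 682 series-wide peaks of these chromosomes, 21.6% were overlapped by both lists, 36.7% by replicate 1 and 38.6% by replicate 2. The replicates thus gave single-list backing in similar numbers. Among the 6212 backed X peaks (73.1% of 8498), by comparison, 0.869% rested on replicate 1 alone and 77.6% on replicate 2 alone. The difference between X and these chromosomes was not tested. All intervals cover counting error only, and peaks are not replicates of a condition.

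The overlap limit of 1 bp decided few cases. The smallest overlap of a backed peak was 9 bp, at III 12613314 to 12613472, followed by 59 bp at V 17386920 to 17387096 and 98 bp at IV 15933147 to 15933332. Just outside the limit, the unbacked peaks nearest to a replicate peak lay 152 bp from it at IV 17493468 to 17493824, 175 bp at V 7917084 to 7917244 and 283 bp at V 19488533 to 19488683. Peaks backed by a single list were mostly far from any peak of the other list. The median distance from a replicate 1 backed peak to the nearest replicate 2 peak was 165031 bp (103 peaks, lowest 566 bp), and from a replicate 2 backed peak to the nearest replicate 1 peak 88622 bp (116 peaks, lowest 43 bp).

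The 366 backed peaks were not 366 separate sites in the replicates. They rested on 184 replicate 1 peaks and 195 replicate 2 peaks, because 148 of them (40.4%, 35.4% to 45.7%) shared a replicate peak with another backed peak. Joining peaks that shared a replicate peak left 273 loci. Of these, 218 held 1 backed peak, 55 held 2 or more and 20 held 3 or more. Both lists supported 100 loci (36.6%), replicate 1 alone 78 and replicate 2 alone 95. A replicate peak met several series-wide peaks about as often in either replicate. Of the replicate peaks that met any series-wide peak, 41 of 184 in replicate 1 (22.3%, 16.5% to 29.0%) and 41 of 195 in replicate 2 (21.0%, 15.5% to 27.4%) met several, a mean of 21.7% ± 0.889 (SD, n = 2). On X the corresponding shares were 2.84% in replicate 1 (41 of 1444) and 41.6% in replicate 2 (1495 of 3597), values that differed between the replicates and were not tested against those of the autosomes.

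Backed peaks were nearly as common in each of the 4 chromosomes. Backing was found for 84 of 156 series-wide peaks on II (53.8%, 45.7% to 61.8%), 80 of 161 on III (49.7%, 41.7% to 57.7%), 87 of 170 on IV (51.2%, 43.4% to 58.9%) and 115 of 195 on V (59.0%, 51.7% to 66.0%). These intervals overlap each other and the 53.7% of all 4 chromosomes. The make-up of the backing varied more when counted by peak. Peaks in both lists made up 47.8% of the backed peaks of V (38.4% to 57.3%), 42.9% of those of II (32.1% to 54.1%), 34.5% of those of IV (24.6% to 45.4%) and 32.5% of those of III (22.4% to 43.9%). Replicate 2 alone backed 42.5% of the backed peaks on IV and 40.0% on III, against 26.2% on II and 21.7% on V. Because peaks share replicate peaks, these intervals are too narrow for separate sites. The shares themselves also depend on such peaks. Neighbouring peaks at II 13817843 to 13827529 gave 13 of the peaks in both lists, and those at V 3434637 to 3440832 gave 11. The make-up of each chromosome was not counted by joined locus.

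Chromosome arms were compared with centres by the midpoint of each peak, each chromosome being cut into 3 segments of equal length, the left arm, the centre and the right arm. Backed peaks were somewhat denser in the centres than in the arms. The centres held 142 backed peaks, or 6.31 per Mb, against 101 (4.49 per Mb) in the left arms and 123 (5.47 per Mb) in the right arms, and the order was the same for all series-wide peaks (254, 194 and 234). The arms therefore held 224 of 366 backed peaks (61.2%, 56.0% to 66.2%), while they make up 66.7% of the length by construction and held 62.8% of all series-wide peaks and 64.6% of the unbacked ones (59.0% to 69.8%). The intervals of the backed and the unbacked peaks overlapped, and that of the backed peaks held the share of all peaks. The replicate lists taken on their own, with no reference to the series-wide list, had 147 of 233 peaks in the arms in replicate 1 (63.1%) and 124 of 209 in replicate 2 (59.3%), a mean of 61.2% ± 2.66 (SD, n = 2). Joined into loci, the density was 5.07 per Mb in the centres, 3.11 in the left arms and 3.96 in the right arms.

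**Figure D1:**
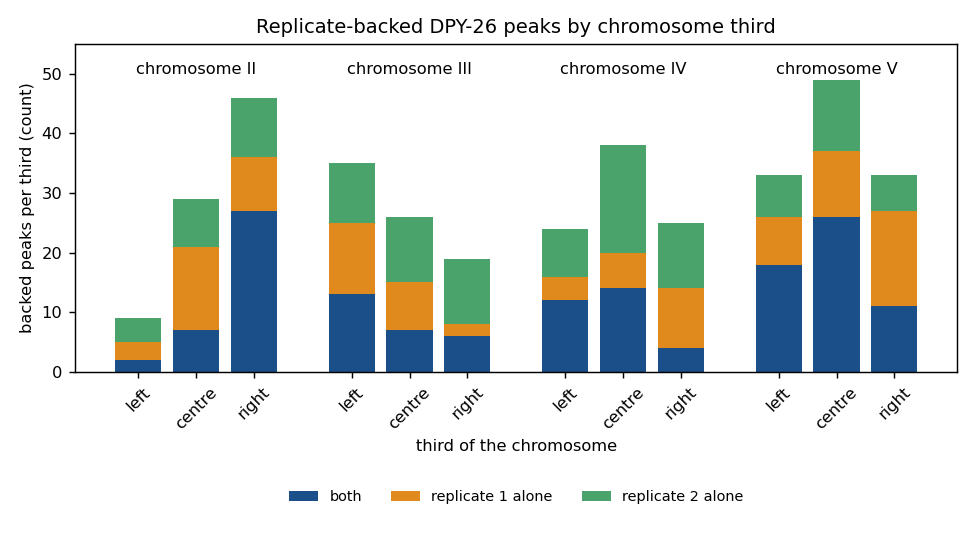
Number of backed peaks (vertical axis, count) in the left arm, centre and right arm of chromosomes II to V, with the part backed by both lists, replicate 1 alone and replicate 2 alone stacked. Chromosome II has 9 peaks in its left arm and 46 in its right, whereas the centre holds the most on IV (38) and V (49).

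The pooled value covered different layouts on the 4 chromosomes, which the backed peaks largely shared with all series-wide peaks. The left arm of chromosome II held 9 backed of 30 series-wide peaks, its centre 29 of 50 and its right arm 46 of 76. The same order was found in both replicate lists, with 7, 19 and 29 peaks in replicate 1 and 8, 14 and 24 in replicate 2, so that the right arm of II held 52.7% and 52.2% of the peaks of II (mean 52.5% ± 0.391, SD, n = 2). It was also present after joining, with 9, 24 and 31 loci. Chromosome III leaned the other way, with 35 backed of 60 series-wide peaks in the left arm, 26 of 62 in the centre and 19 of 39 in the right arm. Its left arm did not lead its centre among all series-wide peaks, nor after joining, with 23, 23 and 16 loci. In replicate 1 the left arm of III held 24 of 52 peaks (46.2%) and in replicate 2 it held 19 of 51 (37.3%), a mean of 41.7% ± 6.29 (SD, n = 2). The right arm of III held 10 peaks in replicate 1 and 15 in replicate 2. On V the centre held the most, with 49 backed of 80 series-wide peaks against 33 of 54 in the left and 33 of 61 in the right arm, and 29 peaks in each replicate list. On IV the centre held 38 backed of 62 series-wide peaks against 24 of 50 and 25 of 58, but replicate 1 had 20 peaks in the left arm, 20 in the centre and 18 in the right arm, and only replicate 2 (21, 25 and 14) had most in the centre.

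Arm and centre peaks had similar values. The score is the authors' own value for each peak, undefined in the headers and labels. Medians, differences and cut-offs of the score are taken within a list, and their unit is unknown. The median series-wide score was 7.78 in the arms (interquartile range 4.54 to 15.7, 224 peaks) and 8.395 in the centres (5.04 to 14.4, 142 peaks), and among isolated peaks, those with no other within 5 kb, the order was the reverse (12.7 and 12.1). The pooled difference of -0.615 was 0 without chromosome II and -1.92 without V. It was -0.185 without replicate 1 and -1.01 without replicate 2. The median width was 323 bp in the arms and 320.5 bp in the centres. Peaks in both lists made up 41.5% of backed arm peaks (35.0% to 48.3%) and 38.03% of backed centre peaks (30.0% to 46.5%). Peaks with a neighbour within 5 kb made up 57.1% of backed arm peaks (50.4% to 63.7%) and 49.3% of backed centre peaks (40.8% to 57.8%). Neither pair of intervals separated the arms from the centres.

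Backed peaks had close neighbours more often than unbacked ones, and most clustered backed peaks shared a replicate peak. A peak was called clustered when another series-wide peak lay within 5 kb, edge to edge, and isolated otherwise. Of all 682 series-wide peaks, 39.9% were clustered. Among the backed ones 198 of 366 were (54.1%, 48.8% to 59.3%), and among the unbacked ones 74 of 316 (23.4%, 18.9% to 28.5%). The clustered share was 61.9% of peaks in both lists (53.5% to 69.8%), 51.5% of those in replicate 1 alone and 46.6% of those in replicate 2 alone. By construction, a wide replicate peak backs every series-wide peak under it, and 148 of the 198 clustered backed peaks shared a replicate peak while none of the 168 isolated ones did. Of the 218 backed peaks that shared no replicate peak, 50 were clustered. Leaving out the peaks that shared one removed clustered peaks only, so this share cannot be compared with that of the unbacked peaks. When series-wide peaks within 500 bp were merged first, the clustered share was 33.1%. After joining, 53 of 273 loci (19.4%) had another locus within 5 kb. Neither the merged nor the joined share was computed for unbacked peaks. Within their own lists, 68 of 233 replicate 1 peaks (29.2%) and 40 of 209 replicate 2 peaks (19.1%) had a neighbour that close, a mean of 24.2% ± 7.10 (SD, n = 2).

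Isolated and clustered peaks differed in how backing followed the score. Among isolated peaks the backed share was larger at higher series-wide scores, going from 23 of 129 below a score of 5 (17.8%, 11.7% to 25.5%) to 43 of 146 between 5 and 10 (29.5%), 61 of 94 between 10 and 20 (64.9%) and 41 of 41 at 20 or more (100%, 91.4% to 100%). Clustered peaks showed no such order. There the backed share was 75 of 103 below 5 (72.8%, 63.2% to 81.1%), 73 of 94 between 5 and 10 (77.7%), 38 of 55 between 10 and 20 (69.1%) and 12 of 20 at 20 or more (60%, 36.1% to 80.9%). Peaks in both lists had the same order, and made up 2.33% of isolated peaks below 5 and 56.1% of those at 20 or more, against 32.04% and 30% of clustered peaks. These shares were not tested, because the score and the overlap may come from the same libraries.

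**Figure D2:**
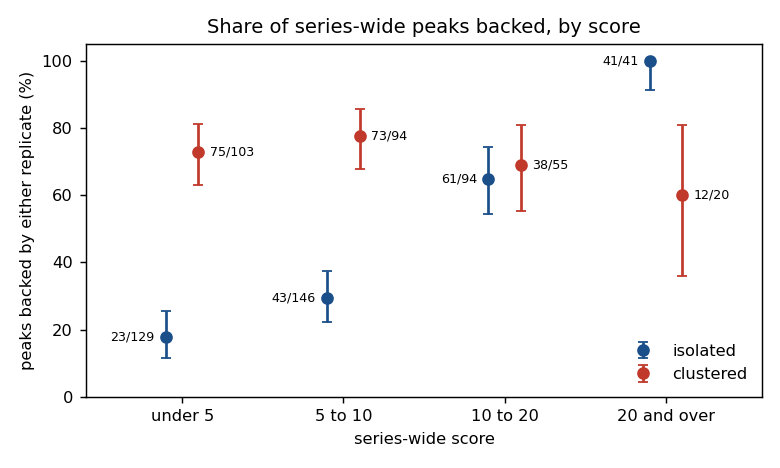
Percentage of series-wide peaks on II to V overlapped by at least 1 replicate peak (vertical axis), by series-wide score (horizontal axis), for isolated and clustered peaks. Bars are 95% exact intervals (counting error only) and labels give backed over all peaks: isolated peaks climb from 23/129 to 41/41, clustered ones stay between 60% and 77.7%.

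Peaks in both lists showed the split most sharply. Isolated peaks in both lists had a median series-wide score of 19.6 (interquartile range 12.8 to 26.9, 56 peaks), and clustered ones 5.98 (4.185 to 10.7, 91 peaks). In the replicate lists the order was the opposite. The replicate 1 score behind them had a median of 106 for the isolated and 187 for the clustered peaks, and the replicate 2 score 116 and 238. The series-wide medians were 363 bp for the isolated and 360 bp for the clustered peaks, whereas the replicate 1 peaks behind them were 473.5 bp and 1206 bp wide and the replicate 2 peaks 1060.5 bp and 2403 bp. Several narrow, low-scoring series-wide peaks thus lay under a wide replicate peak, and these medians count a replicate peak once for each peak it backs. Over all backed peaks the clustered median lay below the isolated one (difference -6.33), and less so (-2.53) among peaks that shared no replicate peak. Counted once each, replicate 1 peaks that met 1 series-wide peak had a median score of 93.9 (143 peaks) and those that met 2 or more 187 (41 peaks). The corresponding replicate 2 medians were 98.6 (154 peaks) and 231 (41 peaks).

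**Figure D3:**
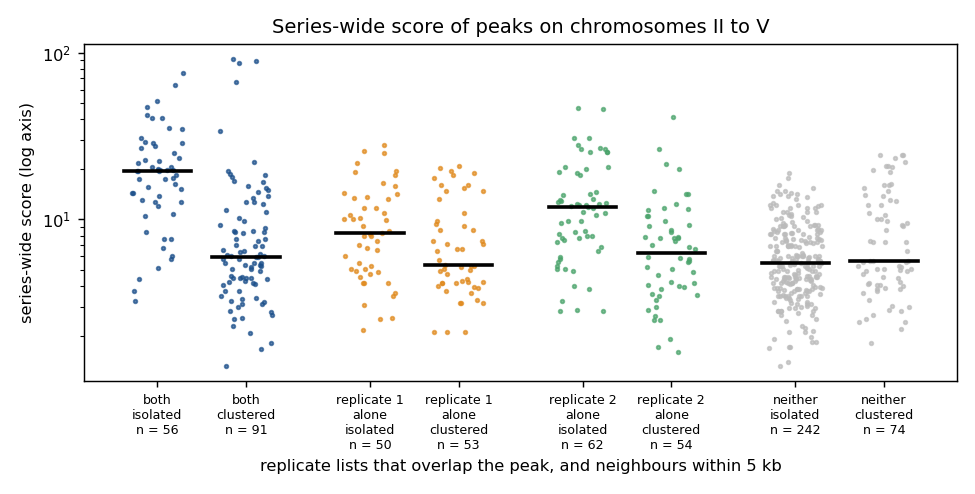
Series-wide score (vertical log axis) of every peak on II to V, by backing and by whether another series-wide peak lies within 5 kb. Each point is a peak and each line a median: among peaks in both lists the isolated ones have a median of 19.6 and the clustered ones 5.98, while isolated and clustered unbacked peaks have medians of 5.455 and 5.66.

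Isolated peaks in both lists scored higher than isolated peaks in a single list, whereas the clustered medians lay close together. Over all backed peaks the median series-wide score was 8.56 in both lists (147 peaks) and 7.77 in a single list (219 peaks), against 5.515 for the 316 unbacked peaks. Isolated peaks had medians of 19.6 in both lists, 8.235 with replicate 1 alone (50 peaks) and 11.8 with replicate 2 alone (62 peaks), and isolated unbacked peaks 5.455 (242 peaks). Among clustered peaks they were 5.98, 5.31 (53 peaks), 6.30 (54 peaks) and 5.66 (74 peaks). The pooled difference of 0.79 between both lists and a single list became -0.36 without chromosome III, 2.62 without IV and 4.915 without V. None of these differences was tested. Peaks in both lists were also wider, with a median of 362 bp against 275 bp for replicate 1 alone, 296.5 bp for replicate 2 alone and 190 bp for unbacked peaks. Peaks wider than 1000 bp numbered 26, of which 11 were in both lists, 7 had replicate 1 alone, 0 had replicate 2 alone and 8 were unbacked.

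Many peaks in both lists had replicate peaks of their own. Of the 72 peaks in both lists that shared no replicate peak, 71 met exactly 1 peak in each list. The midpoint of the replicate 1 peak lay a median of 36.5 bp from that of the series-wide peak (highest 150 bp), and that of the replicate 2 peak 36.5 bp (highest 918 bp). The replicate 2 peak held the whole series-wide peak at 71 of 71 sites and the replicate 1 peak at 40 of 71. Since the peaks were kept for overlapping, and replicate 2 peaks are wide, these distances and shares are largely set by the choice. Across these 71 sites the replicate scores had a Spearman rho of 0.51. The series-wide score had a rho of 0.46 with replicate 1 and 0.49 with replicate 2. Both replicates used mixed N2 embryos and the same antibody, and whether they share a culture is not stated.

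The highest-scoring peak in both lists had another series-wide peak within 5 kb on 3 of the 4 chromosomes. Those 3 peaks were 551 to 643 bp wide, above the upper quartile of 546 bp of the peaks in both lists, and that on II was 318 bp wide. On IV it lay at 3311000 to 3311642 in the left arm, with a series-wide score of 91.0, the highest of the 682. It scored 655 in replicate 1 (593 bp wide) and 966 in replicate 2 (1311 bp). On III it lay at 13070242 to 13070860 in the right arm, with a series-wide score of 88.9, a replicate 1 score of 351 and a replicate 2 score of 1041. Both had a neighbouring series-wide peak, at 1772 bp and 1650 bp, that did not share their replicate peaks. On V the highest-scoring peak, at 5780625 to 5781175 in the left arm, had 86.65, 898 and 928, and its replicate 2 peak also covered a neighbour 326 bp away with a score of 5.21. On II the highest score in both lists was lower, 42.35 at 8328900 to 8329217 in the centre, with 82.4 in replicate 1 and 133 in replicate 2, and no other peak within 36258 bp. The order of the 3 high-scoring sites differed between the lists: V was above IV and III in replicate 1, and III above IV and V in replicate 2.

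Isolated peaks in both lists reached down to low series-wide scores. The lowest-scoring on V, at 20606009 to 20606216 in the right arm, had a series-wide score of 3.24, rank 601 of 682, and still scored 75.5 in replicate 1 and 186 in replicate 2. On IV the lowest was 3.70 at 11407123 to 11407356 (69.0 and 97.5 in the replicates), on II 5.76 at 13291580 to 13291777 (64.6 and 77.55) and on III 8.42 at 7659297 to 7659711 (52.8 and 68.8). In replicate 1 these 4 scores lay below the median of 92.9 of its 233 peaks, and in replicate 2 all but that on V lay below the median of 109 of its 209 peaks.

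Other backed peaks lay in groups of neighbours. Gaps of at most 5 kb chained 272 series-wide peaks into 90 groups, of which 49 were pairs and 9 held 5 or more peaks, 5 of them on V. A backed peak was present in 75 groups. In 50 groups every peak was backed and in 18 every peak was in both lists. The 55 loci with several backed peaks were in both lists in 28 cases. Replicate 1 alone supported 14 and replicate 2 alone 13.

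The group with the most backed peaks lay in the right arm of II, at 13817843 to 13827529. Its 13 peaks were all in both lists, with series-wide scores of 1.81 to 8.47 (median 4.55), and covered 39.5% of 9687 bp. In replicate 1 the stretch held 6 peaks of 1002 to 1256 bp with scores of 81.7 to 187, and in replicate 2 it held 4 peaks of 1777 to 5094 bp with scores of 116 to 516. The 6 replicate 1 peaks were of similar width, and the first 3 of them lay under the widest replicate 2 peak.

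A pair of groups in the centre of V had a similar form. At V 8889600 to 8898485, 8 peaks in both lists (scores 2.08 to 7.67) fell under 4 replicate 1 peaks and 4 replicate 2 peaks, each replicate 1 peak being met by 1 replicate 2 peak. The 4 replicate 1 peaks were 1052 to 1188 bp wide with scores of 131 to 208, and the replicate 2 peaks 1621 to 1959 bp wide with scores of 153 to 241. At V 8847311 to 8853899, 5 peaks in both lists (scores 2.81 to 8.56) fell under 3 replicate 1 peaks of 1069 to 1134 bp (scores 162 to 187) and 3 replicate 2 peaks of 1555 to 1716 bp (scores 229 to 241). The replicate peaks matched one for one at both groups. Their median series-wide scores of 5.36 and 5.78 lay below the median of 6.54 of all 682 peaks.

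Other groups were a single broad peak in each replicate. At V 3434637 to 3440832, in the left arm, 11 peaks with scores of 1.32 to 5.94 lay under 1 replicate 1 peak of 6601 bp (score 435) and 1 replicate 2 peak of 7100 bp (score 238). At V 10605641 to 10612454, in the centre, 4 peaks with scores of 3.38 to 15.0 covered 92.3% of the stretch and lay under 1 replicate 1 peak of 6930 bp (score 388) and 1 replicate 2 peak of 7554 bp (score 70.8). At III 1017474 to 1020443, in the left arm, 5 peaks with scores of 4.22 to 9.40 lay under a replicate 1 peak of 3388 bp with a score of 751. Replicate 2 held no peak there, although the score ranked 3 among the 233 replicate 1 peaks of these chromosomes.

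**Figure D4:**
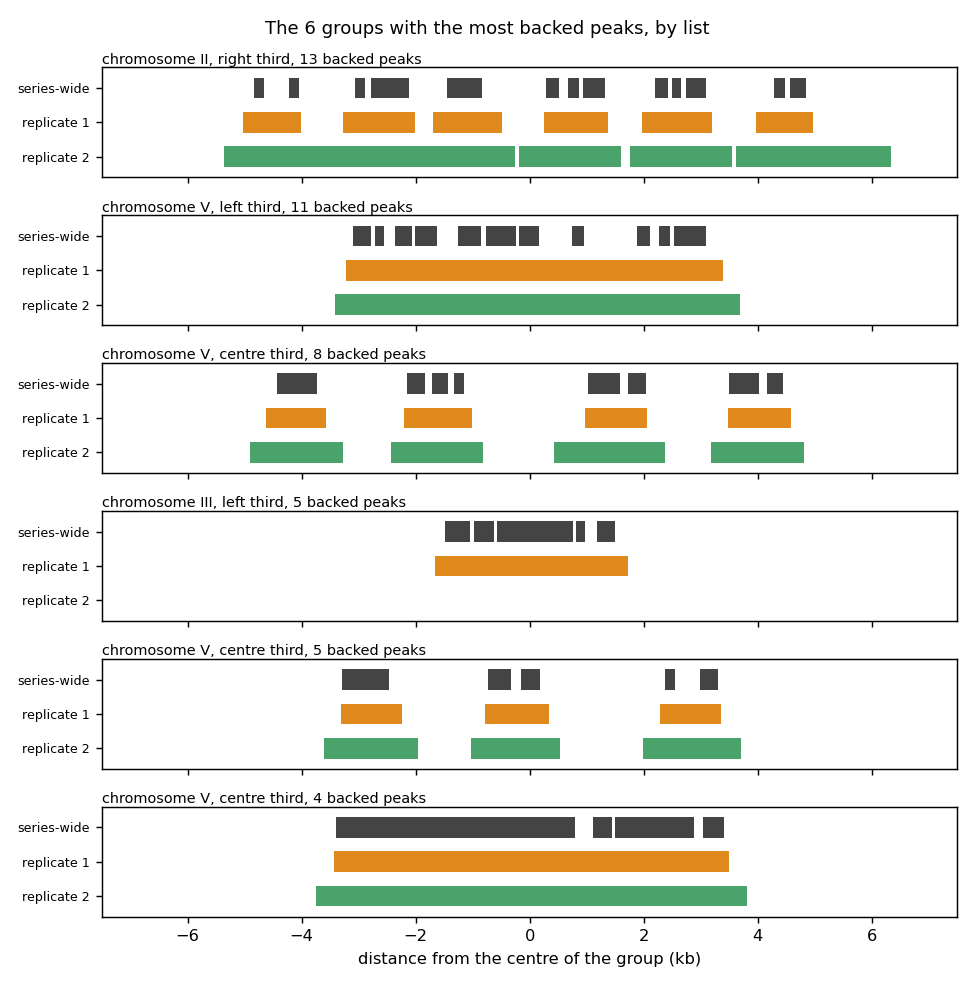
Series-wide, replicate 1 and replicate 2 peaks, to scale, in the 6 groups with the most backed peaks (horizontal axis, distance from the centre of the group in kb). The chromosome II group and 2 of the V groups hold separate replicate peaks about 1 kb wide in replicate 1, whereas the V groups of 11 and 4 peaks and the III group lie under a single broad peak in each replicate that has one.

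Behind peaks in both lists, wider replicate 1 peaks tended to score higher. The rho between replicate 1 score and width was 0.67 across the 144 peaks that met 1 peak in each list. These count a replicate 1 peak once for each peak it backs. Across the 71 of them that shared no replicate peak the rho was 0.44. The 5 highest-scoring peaks of each replicate on these chromosomes were looked up after their values were seen. In replicate 1 the first was a 3432 bp peak at III 1299659 to 1303090 with a score of 974. It scored 132 in replicate 2, and its 2 series-wide peaks scored 17.85 and 21.95. In replicate 2 the first was a 5239 bp peak at III 7444012 to 7449250 with a score of 1957, against 424 in replicate 1 and 20.7 in the series-wide list. The next replicate 2 peak, 3109 bp at II 12843328 to 12846436, scored 1923, against 506 in replicate 1 and at most 14.6 in the series-wide list. The others were the sites on IV and V named above, in both lists, that on III in replicate 2, the III group at 1017474 in replicate 1 and a 4517 bp replicate 1 peak at II 8288320 to 8292836 (score 751) that replicate 2 did not hold.

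Replicate scores of peaks in both lists were related but far from equal. Across the 144 peaks that met 1 peak in each list, the Spearman rho was 0.46 and the Pearson r of the log10 scores 0.44. These rest on 101 distinct pairs of replicate peaks, since peaks of a group repeat the same pair. The rho between the replicate scores was 0.51 across the 55 isolated peaks and 0.25 across the 89 clustered ones. Across the same 144 peaks the series-wide score had a rho of -0.05 with replicate 1 and -0.11 with replicate 2, while the widths of the replicate peaks had a rho of 0.91 with each other. The series-wide score and the replicate 1 width had a rho of -0.55. It was -0.009 across the 71 peaks that shared no replicate peak and -0.33 across the 89 clustered ones. Across those 71 peaks the rho of the replicate widths was 0.76. Isolated and clustered peaks gave different values for the series-wide score against the replicate scores. Across 55 isolated peaks the rho was 0.40 with the replicate 1 score and 0.49 with the replicate 2 score, and across 89 clustered ones 0.03 and 0.04. The peak whose rank differed most between the replicates lay at II 14250063 to 14250496, with 51.01 in replicate 1 and 491 in replicate 2. The next 4 were the peaks of the V group at 10605641 to 10612454, with 388 and 70.8.

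**Figure D5:**
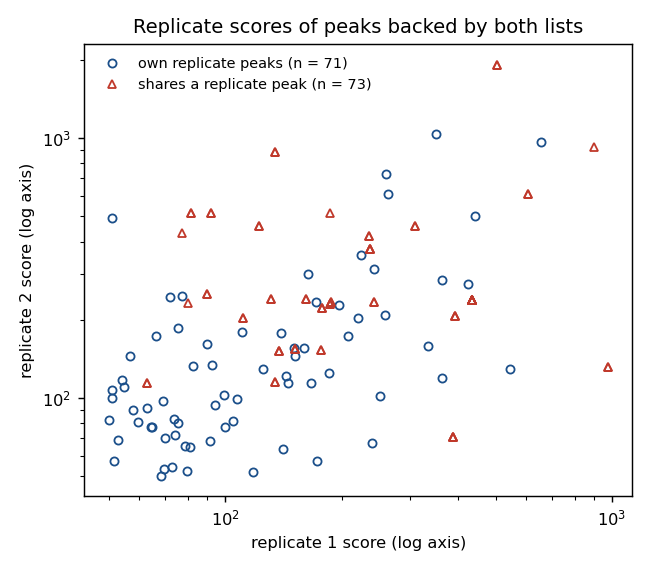
Replicate 1 score against replicate 2 score (log axes) of the 144 peaks that met 1 peak in each list. Circles are the 71 peaks with replicate peaks of their own and triangles the 73 that share one, so that some triangles repeat the same replicate pair. Scores run from about 50 to 974 in replicate 1 and to 1923 in replicate 2.

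Peaks backed by a single list included some of high series-wide score, and at 30 or more these came from replicate 2. Of the 20 peaks with a score of 30 or more, 15 were in both lists, 5 in replicate 2 alone and 0 in replicate 1 alone. The highest were at II 11967410 to 11967772 (46.6, with 196 in replicate 2), III 12598268 to 12598673 (45.8, with 266) and IV 8432675 to 8433040 (41.0, with 290, a replicate 2 peak that also covered a neighbour). On V the highest in replicate 2 alone was 20.7 at 6267439 to 6267738, with 50.5 in replicate 2. The highest in replicate 1 alone were 27.95 at II 1 to 256, 25.65 at IV 3366653 to 3367124, 25.15 at III 10224614 to 10225463 and 21.8 at V 5283270 to 5285729, with replicate 1 scores of 104, 141, 332 and 274. The peak on II is the first of its chromosome and begins at its first base.

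Score did not guarantee backing. Of the 61 peaks with a score of 20 or more, 53 were backed (86.9%, 75.8% to 94.2%). The 8 unbacked ones were all clustered and lay in 3 groups. The highest-scoring were IV 11070855 to 11072551 with 24.35 and V 17129640 to 17132102 with 24.3. The unbacked peak with the highest score on III was 20.8 at 5357287 to 5358404, and on II 18.9 at 5714850 to 5715102. The V group ran from 17115415 to 17132102 and held 8 peaks that covered 71.3% of it, of which 2 were backed, both by replicate 1 alone. The groups on IV (11070855 to 11075775, 4 peaks) and III (5353249 to 5358404, 7 peaks) held no backed peak.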

How the data were processed

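ChIP-seq of DPY-26 gave 3 peak lists. The submitters' processing notes name BWA and the build ce10, and the file headers give WormBase WS220 for the coordinates. MACS made the replicate lists and MACS v2 the series-wide list, per the files' source column. Each deposited peak has start and end positions with a score. The deposited score is not defined in the sources used here, and neither are the calling threshold, the use of input or any pooling. Series-wide scores start at 1.3, those of replicate 1 at 50.0 and those of replicate 2 at 50.02, so levels were compared within a list.

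Overlaps, gaps, groups and joined loci were computed with scipy 1.17.1, pandas 2.3.3 and numpy 2.4.6 under Python 3.11.15, and drawn with matplotlib 3.10.9, by functions tested on simulated data. The length of a chromosome was its largest coordinate in any list. Shares have 95% Clopper-Pearson intervals. With 2 ChIP replicates and peaks chosen by overlap, no test between groups of peaks was made. On these chromosomes the lists held 682 series-wide, 233 replicate 1 and 209 replicate 2 peaks. Alternatives changed the overlap, the neighbour distance, the segments, merging, the list used and the chromosomes kept. Dividing scores, widths and backing by shared replicate peaks was chosen after seeing the data. Members, divisions and the rule for named regions were chosen with earlier results of these data known. That rule takes the highest-scoring peak of each chromosome by backing, the 6 groups with most backed peaks, the 5 largest rank differences, the 3 peaks on each side of the overlap limit and the lowest-scoring isolated peak in both lists of each chromosome. No genome or annotation of this build was used here, so regions are named by position.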

Additional observations from a re-analysis of the deposited data

Results flagged for a closer look

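The replicate lists held peaks on these chromosomes that no series-wide peak overlapped, a signal outside the 366 backed peaks. They numbered 49 of 233 in replicate 1 (21.0%, 95% exact interval 16.0% to 26.8%) and 14 of 209 in replicate 2 (6.70%, 3.71% to 11.0%). They scored low in their own lists, with medians of 69.6 and 67.2 against 92.9 and 109 for all replicate peaks on these chromosomes. Scores under 100 were held by 42 of the 49 and 12 of the 14. The best rank by score was 55 in replicate 1 and 84 in replicate 2. The arms held 38 of the 49 and 11 of the 14, where they held 63.1% and 59.3% of all peaks of these lists and make up 66.7% of the length. Few recurred: 2 of the 49 met a replicate 2 peak and 1 of the 14 a replicate 1 peak. Most were far from any series-wide peak, with 11 of the 49 and 1 of the 14 within 5 kb of one.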

How the results depend on the processing

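Of 83 alternative values over 10 results, 52 kept their direction and stayed within a set range, 29 moved further and 2 reversed. The range was the replicate or counting spread, an interval for the correlation of replicate scores or, for counts, 1.5 times. For the clustered share and the arm and clustered score differences, the replicate spread came from the single-list values, which are themselves among the 83. For both lists minus a single list, it was the SD of the differences from replicate 1 alone and from replicate 2 alone. Leaving out the 3 densest windows of 100 kb was chosen after seeing the data, and so was dividing or joining peaks by shared replicate peaks, except for the arm share and the number of loci. No cause was tested.

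The share in both lists (40.2%) was 33.4% without the 3 densest windows. The arm share (61.2%, with arms of 66.7% of the length) was 58.2% for joined loci. It was 48.1% with each chromosome cut into 4 and the outer 2 segments as arms, which make up 50% of the length by construction. The clustered share (54.1%) was 41.8% within 1 kb, 49.5% within 2 kb, 59.3% within 10 kb, 50% where the neighbour had to be backed, 33.1% after merging within 500 bp, 56.3% without IV, 51.0% without V and 48.9% without the densest windows. It was 55.1% to 57.6% with a single replicate list. The score of both lists minus a single list (0.79) was -0.36 without III, 2.62 without IV, 4.915 without V, 9.525 among isolated peaks, 6.33 without the densest windows and 8.78 among unshared peaks. The score of arms minus centres (-0.615) was 0.585 among isolated peaks, 0 without II, -1.92 without V, -1.175 without the densest windows and -1.01 to -0.185 with a single list. The score of clustered minus isolated peaks (-6.33) was -5.66 within 10 kb, -6.8 without II, -6.81 without IV, -5.57 without V, -5.625 without the densest windows and -2.53 among unshared peaks, and -7.9 to -7.455 with a single list. The width of both lists minus a single list (80 bp) was 52 bp without III. A single list gave 181 to 195 loci in place of 273, and 250 to 263 backed peaks in place of 366. Merging within 500 bp left 287 backed peaks and leaving out the densest windows 329.

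No paired analysis was possible because peak values were analysed for the ChIP samples only, and no test was made. Replicate spread rests on 2 libraries, and without counts no precision can be given for a single peak.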

Other observations

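The last series-wide peak on each of the 4 chromosomes reached the largest coordinate found there in any list. These end peaks lay at II 15279043 to 15279196 (score 8.34), III 13783384 to 13783731 (8.13), IV 17493468 to 17493824 (7.37) and V 20923854 to 20924012 (8.75), and none was backed. At the left ends, peaks began at base 1 on II (27.95, backed by replicate 1 with a score of 104) and on V (7.43, unbacked), while the first peaks of III and IV lay at 235221 and 30385.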
